A study of Mus musculus with 20 samples.

Results

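The genes described here encode the receptors that bind the constant (Fc) region of IgG in the mouse, with the adaptor chain that most of them need. They were found by symbol, all 6 of them, among the 16003 genes of the single-cell count table: Fcgr1, Fcgr3, Fcgr4, Fcgr2b, Fcer1g and Fcgrt. Unique molecular identifiers (UMIs, each marking 1 captured transcript) were summed over the cells of each cluster in each library and scaled to a total of 1000000 per cluster and library (CPM). The 6 genes together held 330083 UMIs, of which Fcer1g had 258053, Fcgr3 41599, Fcgr1 13800, Fcgr2b 7114, Fcgrt 4774 and Fcgr4 4743.

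The libraries came from dissociated spinal cord of female C57BL/6J mice, bought at 8 to 10 weeks of age, that ate vehicle chow or chow with 1200 ppm PLX5622 from 2 weeks before surgery to the end point. PLX5622 inhibits the colony-stimulating factor 1 receptor (CSF1R), on which microglia depend for survival, and it can also reach other cells that carry CSF1R. Surgery was a contusion spinal cord injury (SCI) at T9 or a laminectomy alone (sham), and injured cords were taken at 7 or 28 days post-injury (dpi). Each diet thus had a sham, a 7 dpi and a 28 dpi group, with 1 library per group made from pooled mice, and the label of each sham library names both 7 and 28 days. With 1 library per group no test between groups could be made and no difference has a replicate check. Every interval in this text is an exact 95% interval that covers counting error only, and not the spread between mice. The cords were not perfused, so blood cells remained in the suspension, and in PLX5622 libraries the microglia are the cells that were left.

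Receptors for the Fc region link antibody to the cells that act on it. The ligand-binding chains Fcgr1 (CD64), Fcgr3 (CD16) and Fcgr4 (CD16-2) are activating: they pair with Fcer1g, the common gamma chain, whose cytoplasmic ITAM motif is phosphorylated by Src-family kinases and then recruits the kinase Syk, leading to phagocytosis and cytokine release. Fcgr2b (CD32b) carries an inhibitory ITIM motif that recruits the phosphatase SHIP1, encoded by Inpp5d, and it is the Fc gamma receptor of B cells. Fcgrt encodes the heavy chain of the neonatal receptor FcRn, which pairs with beta-2 microglobulin (B2m), binds IgG inside acidic endosomes and returns it to the cell surface, and is found in blood vessels. In the central nervous system microglia and macrophages carry the Fc gamma receptors, through which they can engulf targets coated with antibody. Fcer1g also serves receptors that do not bind antibody, among them the C-type lectins Clec4e and Clec4n of macrophages and Ncr1 of natural killer (NK) cells.

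All 6 genes are annotated as protein coding in GENCODE on build GRCm38. Fcgr2b (chr1:170958617-170976547, minus strand), Fcgr4 (chr1:171018920-171029761, plus strand), Fcgr3 (chr1:171051174-171064935, minus strand) and Fcer1g (chr1:171229572-171234365, minus strand) lie within 276 kb of chromosome 1. Fcgr1 is at chr3:96282909-96293969 and Fcgrt at chr7:45092990-45103851, both on the minus strand. In the RefSeq promoter windows of GRCm38.p6, which run from 250 bases before to 50 after the annotated start, the string GAGGAAG or its reverse complement CTTCCTC, which holds the core bound by the myeloid factor PU.1, was found in 3 of the 6 genes, namely Fcgr1, Fcgr3 and Fcgr4. It occurs in 13.6% of 32851 promoter windows of this length, and the shorter GAGGAA or TTCCTC, which every match of the longer string contains, in 28.3%. The stretch of 90 bases around each match is shown, since these 3 activating chains have that string in common, and is printed 5′ to 3′ on the strand of the gene, with the match in capitals.
Fcgr1, chr3:96293977-96294066, minus strand: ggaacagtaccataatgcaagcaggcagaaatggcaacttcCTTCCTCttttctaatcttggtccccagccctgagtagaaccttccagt
Fcgr3, chr1:171059362-171059451, minus strand: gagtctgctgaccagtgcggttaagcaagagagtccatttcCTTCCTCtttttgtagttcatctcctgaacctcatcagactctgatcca
Fcgr4, chr1:171018862-171018951, plus strand: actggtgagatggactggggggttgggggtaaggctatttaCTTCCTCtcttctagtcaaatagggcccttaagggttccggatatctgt
The match begins 56 bases before the start in Fcgr1, 7 before it in Fcgr3 (the first of 2 RefSeq entries) and 23 before it in Fcgr4. The window of that Fcgr3 entry, chr1:171059354-171059653, lies inside the gene span given above, so its start is internal to the gene. The other Fcgr3 entry was not examined separately. The longest run shared by Fcgr1 and Fcgr3 in these stretches is 14 bases, ttccttcctctttt, and each shares 8 bases, cttcctct, with Fcgr4. The letters are not in the windows of Fcer1g, Fcgr2b and Fcgrt, which says nothing of other parts of those genes. A match is a description of sequence and not evidence that a factor binds there.

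The table held 21016 cells in 14 numbered clusters and 81305944 UMIs, from 2606149 to 35694246 per library, with library medians of 2268.5 to 5127 UMIs per cell. Clusters carry no names in the files and were named from markers, of which 67 of the 77 detected were highest in the cluster of their type, so that each name means cells alike in markers. The cluster called cycling cells was led by Top2a and Mki67 together with Elane and Mpo. Cluster 12 had the highest level of every pericyte marker but was led by Pi16, Lum and Dcn, and it is called by its number. The T cell cluster was led by Gzma and Nkg7 as well as Cd3 genes. The monocyte cluster was led by Retnla, Cd209a and MHC class II genes. There were 44 barcodes found in more than 1 library. Of the 84 pairs of cluster and library, 66 held at least 20 cells, and values from fewer cells are given without ratios. Transcripts were counted at their 3′ ends, so CPM was not scaled by gene length, and levels of different genes are compared on that scale. How reads were split between Fcgr2b, Fcgr3 and Fcgr4, which are similar in sequence, was not checked.

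Fcer1g was by far the most abundant of the 6 and had rank 37 among all genes by UMIs, with 25.8% of its UMIs in microglia and 58.4% in monocyte-derived macrophages (MDMs). In vehicle microglia its level was 2948 CPM (2875 to 3022) in sham, 4013 (3965 to 4061) at 7 dpi, then 3787 (3744 to 3830) at 28 dpi. In vehicle MDMs it was 3556 (3458 to 3655), 3986 (3958 to 4014) and 4039 (4006 to 4073) in the same order. In both clusters the injured libraries lay above sham and their intervals did not reach the sham interval. Monocytes had 2938 (2783 to 3100), 3003 (2930 to 3076) and 2610 (2486 to 2738) CPM, and neutrophils 2209 (2038 to 2390), 3086 (2930 to 3248) and 2696 (2530 to 2871). The order in vehicle sham was MDMs, then microglia and monocytes, whose intervals overlapped, then neutrophils. At 7 dpi the intervals of microglia, MDMs and erythroid cells, at 3984 CPM (3746 to 4235), overlapped, and cycling cells, at 3853 (3776 to 3932), lay below microglia and MDMs. The erythroid cells are a cell type that should lack the gene: per 1000 UMIs of the 12 myeloid genes named below, the 58 of them at vehicle 7 dpi had 104 Fcer1g UMIs (97.8 to 111), from 9931 list UMIs, beside 105 in MDMs, and the part of that RNA in their level was not tested. After thinning each cell to 1000 UMIs, an Fcer1g UMI was seen in 92.3%, 96.4% and 96.5% of vehicle microglia in sham, at 7 dpi and at 28 dpi, and in 4%, 47.1% and 46.3% of astrocytes, which should lack the gene. Unthinned, the microglial shares were 92.7%, 98.7% and 96.7%, at median depths of 3178, 2902.5 and 1686 UMIs per cell against 2024, 2057 and 1149 in astrocytes.

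**Figure D1:**
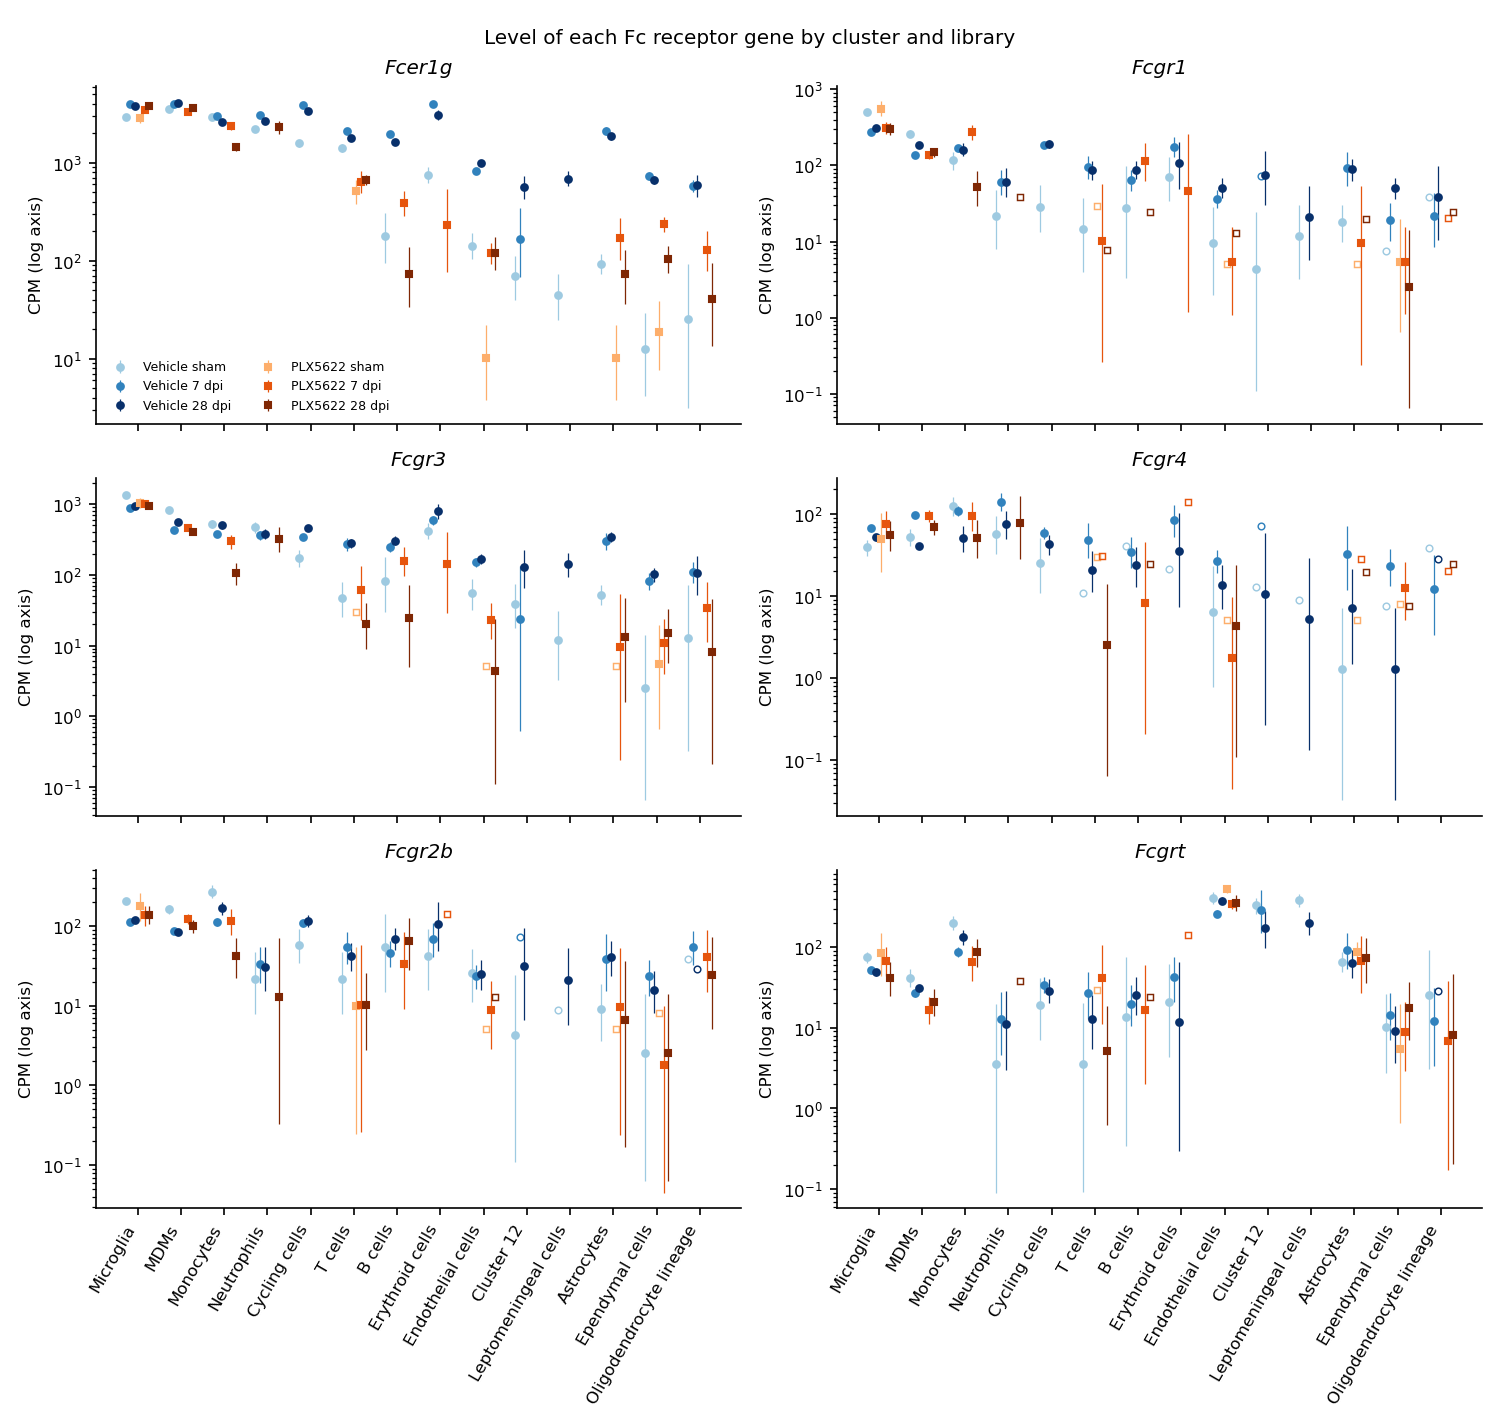
CPM of each Fc receptor gene (log axis, 1 panel per gene) by cluster, for the 6 libraries, with circles for vehicle and squares for PLX5622. Bars are 95% Poisson intervals, hollow symbols mark 0 UMIs drawn at the level of 3 UMIs, and only pairs of cluster and library with at least 20 cells are drawn. Fcer1g reached 4013 CPM in vehicle microglia at 7 dpi, and the level of Fcgrt in vehicle sham was highest in endothelial cells, at 408 CPM.

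Fcgr1, the high-affinity receptor for IgG, was highest in microglia in all 3 vehicle libraries. Its level there was 501 CPM (472 to 533) in sham, 275 (263 to 288) at 7 dpi, then 311 (299 to 324) at 28 dpi. In the microglia of PLX5622 mice it was 558 (442 to 695), 310 (257 to 371) and 305 (255 to 362). Under both diets the sham library was the high one and its interval lay apart from those of both injured libraries. In vehicle MDMs Fcgr1 was 261 (235 to 289), 136 (131 to 141) and 188 (181 to 196) CPM, again highest in sham. In monocytes sham was the lowest, with 116 (87.1 to 152), 167 (150 to 185) and 162 (132 to 196), and both injured intervals overlapped that of sham. Neutrophils had 21.5, 61.3 and 60.7 CPM under vehicle and no Fcgr1 UMI at PLX5622 28 dpi, which with 32 cells allows up to 47.3 CPM. Genes of macrophages also differed between these libraries in the neutrophil cluster: C1qa was at 61, 1763 and 2892 CPM under vehicle and 64.1 at PLX5622 28 dpi, Csf1r at 108, 349 and 380 against 25.6, and Trem2 at 28.7, 706 and 722 against 25.6. The 12 genes of the myeloid list, named below, summed to 9610, 18727 and 20292 CPM there under vehicle and 12862 at PLX5622 28 dpi, and their part in the Fc receptor levels of neutrophils was not tested. After thinning, 39.8%, 23.5% and 25.6% of vehicle microglia had an Fcgr1 UMI, against 0.889%, 9.8% and 5.44% of astrocytes.

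Fcgr3 was the most abundant ligand-binding chain and was also highest in microglia in the 3 vehicle libraries. There it was 1366 CPM (1316 to 1417) in sham, 872 (849 to 894) at 7 dpi, then 955 (933 to 976) at 28 dpi. In PLX5622 microglia it was 1031 (870 to 1212), 991 (894 to 1096) and 949 (859 to 1046), and these 3 intervals overlapped. The vehicle sham library therefore stood above the other 5 for this gene in microglia. In vehicle MDMs Fcgr3 was 833 (787 to 882), 429 (420 to 438) and 566 (554 to 579) CPM, and in monocytes 531 (466 to 602), 375 (350 to 402) and 505 (451 to 563). Both clusters had their lowest vehicle level at 7 dpi. In neutrophils it was 470 (393 to 557), 364 (311 to 422) and 380 (320 to 450), with overlapping intervals. After thinning, 73%, 59.3% and 58% of vehicle microglia and 59.4%, 33.6% and 41.7% of vehicle MDMs had an Fcgr3 UMI, against 1.78%, 19.6% and 21.1% of astrocytes.

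Fcgr4, the activating chain with the fewest UMIs, differed in direction from Fcgr1 and Fcgr3 in the microglia and MDMs of vehicle mice at 7 dpi. In vehicle MDMs its level was 52.2 CPM (41 to 65.5) in sham, 97.8 (93.5 to 102) at 7 dpi, then 41 (37.7 to 44.5) at 28 dpi. In vehicle microglia it was 39.1 (31.1 to 48.6), 66.8 (60.8 to 73.3) and 51.7 (46.8 to 57), and in neutrophils 57.4 (32.8 to 93.2), 140 (108 to 177) and 74.4 (49.1 to 108). All 3 clusters were highest at 7 dpi, with intervals apart from those of sham. The macrophage genes given above for neutrophils were also higher there at 7 dpi than in sham, and their part in the Fcgr4 level was not tested. In monocytes it was 125 (94.7 to 162), 109 (95.4 to 124) and 50.2 (34.3 to 70.8), lowest at 28 dpi. PLX5622 MDMs had 94.5 (80.6 to 110) at 7 dpi, then 68.4 (54.8 to 84.2) at 28 dpi, in the same order as vehicle. Monocytes were highest in vehicle sham, while at 7 dpi the intervals of neutrophils and monocytes overlapped, as did those of monocytes and MDMs. After thinning, 6.29%, 8.58% and 4.42% of vehicle MDMs had an Fcgr4 UMI, against 0%, 3.92% and 0% of astrocytes.

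Fcgr2b, the inhibitory receptor, was highest in monocytes and microglia in the 3 vehicle libraries. In vehicle monocytes it was 270 CPM (224 to 322) in sham, 112 (98.8 to 127) at 7 dpi, then 168 (138 to 203) at 28 dpi. In vehicle microglia it was 207 (188 to 227), 113 (106 to 122) and 119 (111 to 127), and in vehicle MDMs 161 (141 to 184), 87.5 (83.5 to 91.8) and 83.4 (78.6 to 88.3). Sham was the high library in all 3 clusters and its interval overlapped neither injured one. In PLX5622 microglia the values were 177 (114 to 261), 136 (101 to 178) and 137 (105 to 177), with overlapping intervals. B cells, for which Fcgr2b is the known Fc gamma receptor, had 54.6 (14.9 to 140), 45.3 (30.6 to 64.7) and 69.7 (50 to 94.5) under vehicle, so that their level was not the highest in any of these libraries. Per Fcgr2b UMI, B cells held 2, 7.67 and 5.98 UMIs of the activating chains under vehicle. The values were 8.5 and 0.375 at PLX5622 7 and 28 dpi, the last from 3 activating and 8 Fcgr2b UMIs in 71 cells. B cells also held UMIs of the myeloid list, given below, and the part of these in the Fcgr2b level was not tested. At PLX5622 28 dpi microglia and MDMs, at 98.7 (82.3 to 117), were above monocytes, at 41.7 (22.2 to 71.3). After thinning, 16.2%, 11.8% and 11.3% of vehicle microglia had an Fcgr2b UMI, against 0%, 1.96% and 4.08% of astrocytes.

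Shares among the UMIs of the 4 Fc gamma receptor genes do not depend on how libraries are scaled. In vehicle microglia Fcgr2b made up 9.78% (8.92 to 10.7) in sham, 8.55% at 7 dpi, then 8.28% (7.78 to 8.8) at 28 dpi, and 9.73%, 8.97% and 9.49% under PLX5622, so the inhibitory share moved by little on all cells, while with thinned cells the value at PLX5622 7 dpi was 5.48%. In vehicle MDMs it was 12.3% (10.9 to 13.9), 11.7% (11.2 to 12.2) and 9.49% (8.97 to 10), lowest at 28 dpi, and under PLX5622 it was 15.1% (13.3 to 17.1) at 7 dpi, then 13.6% (11.5 to 16) at 28 dpi. With thinned cells the order of the MDM shares turned, at 12.4% in vehicle 7 dpi, 11.2% in PLX5622 7 dpi and 17.4% in PLX5622 28 dpi. Vehicle monocytes had the highest share, 25.9% (22 to 30.1) in sham, 14.7% (13.1 to 16.5) at 7 dpi, then 19% (15.8 to 22.5) at 28 dpi, and neutrophils the lowest of the 4 clusters under vehicle, 3.77%, 5.65% and 5.56%. Fcgr4 moved more. In vehicle MDMs its share was 3.99% (3.15 to 4.98) in sham, 13% (12.5 to 13.6) at 7 dpi, then 4.66% (4.29 to 5.05) at 28 dpi, with the middle value far outside the other intervals. In vehicle microglia it was 1.85% (1.48 to 2.29), 5.03% (4.59 to 5.51) and 3.6% (3.27 to 3.96), 3 separate values. In neutrophils it was 10.1%, 23.3% and 13.6%. In vehicle monocytes it was 12% (9.22 to 15.3), 14.3% (12.6 to 16) and 5.67% (3.91 to 7.92), lowest at 28 dpi. PLX5622 MDMs had 11.7% (10.1 to 13.5) at 7 dpi, then 9.45% (7.65 to 11.5) at 28 dpi. PLX5622 microglia had 2.72%, 5% and 3.86%, with overlapping intervals.

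**Figure D2:**
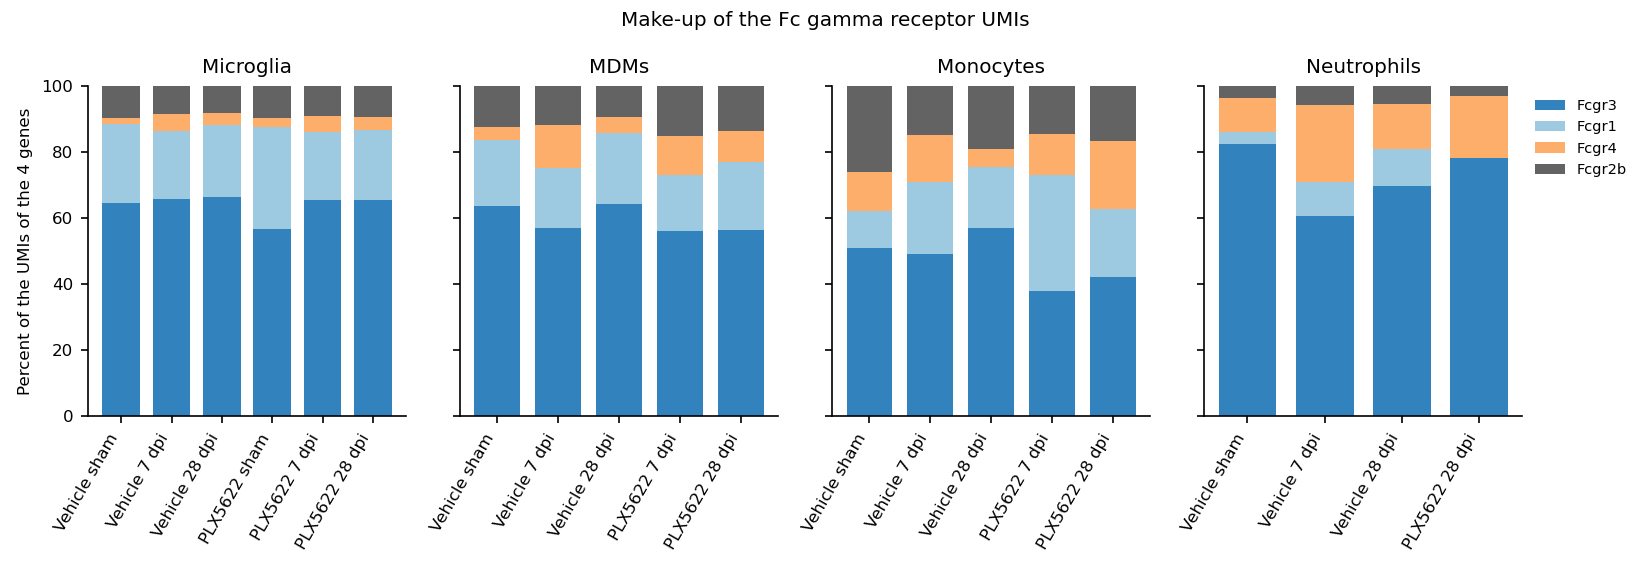
Percent of the summed UMIs of Fcgr3, Fcgr1, Fcgr4 and Fcgr2b held by each gene, for microglia, MDMs, monocytes and neutrophils, with 1 bar for each library with at least 20 cells. In vehicle MDMs the Fcgr4 segment was 3.99% in sham, 13% at 7 dpi and 4.66% at 28 dpi, and the Fcgr2b segment was tallest in monocytes of vehicle sham, at 25.9%.

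The adaptor was also counted against the chains it serves. Vehicle microglia had 1.55 Fcer1g UMIs (1.49 to 1.61) per UMI of Fcgr1, Fcgr3 and Fcgr4 together in sham, 3.31 (3.23 to 3.39) at 7 dpi, then 2.87 (2.81 to 2.94) at 28 dpi. Vehicle MDMs had 3.10 (2.93 to 3.28), 6.02 (5.91 to 6.13) and 5.08 (4.98 to 5.18). In PLX5622 libraries the ratio was 1.73, 2.49 and 2.91 in microglia and, at 7 and 28 dpi, 4.76 and 5.75 in MDMs. In both clusters and under both diets the measured injured libraries had more adaptor UMIs per receptor UMI than the sham library of vehicle mice, and MDMs had more than microglia. Against Tyrobp, the other ITAM adaptor of myeloid cells, the order of injured and sham vehicle libraries was the opposite. There were 1.15 Fcer1g UMIs per Tyrobp UMI in vehicle sham microglia, 0.622 at 7 dpi and 0.655 at 28 dpi. Vehicle MDMs had 0.825, 0.623 and 0.575, so that at 7 dpi they were level with microglia.

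Set as ratios, injured against sham microglia of vehicle mice gave log2 values at 7 dpi of 0.44 for Fcer1g (0.41 to 0.49), -0.86 for Fcgr1 (-0.97 to -0.75) and -0.65 for Fcgr3 (-0.71 to -0.58). Fcgr4 was at 0.77 (0.43 to 1.13), Fcgr2b at -0.86 (-1.04 to -0.69) and Fcgrt at -0.53 (-0.81 to -0.25). Thus 3 of the 6 were at least 1.5-fold lower by CPM, as were 47.3% of all genes counted (those for which the libraries jointly held 100 UMIs or more), and 1, Fcgr4, was at least 1.5-fold higher, as were 8.56%. The median of all such genes was itself shifted, by -0.54 at 7 dpi and -0.44 at 28 dpi in microglia, by -0.25 at both times in MDMs and by -0.16 and -0.20 in monocytes. TMM scaling, which centres libraries on the bulk of genes, therefore bears on each direction. By TMM the microglial values at 7 dpi were 0.99 for Fcer1g, -0.32 for Fcgr1, -0.10 for Fcgr3, 1.32 for Fcgr4 and -0.32 for Fcgr2b, while Fcgrt turned from -0.53 to 0.02. With it no member was 1.5-fold lower, against 15.5% of genes, and 2, Fcer1g and Fcgr4, were at least 1.5-fold higher, against 20.8%. The lower values of Fcgr1, Fcgr3 and Fcgr2b by CPM thus stood beside a nearly equal share of all genes, and by TMM they were within 1.5-fold of sham.

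At 28 dpi vehicle microglia had log2 ratios to sham of 0.36 for Fcer1g (0.32 to 0.40), -0.69 for Fcgr1 (-0.79 to -0.58) and -0.52 for Fcgr3 (-0.58 to -0.45). The values were 0.40 for Fcgr4 (0.06 to 0.76), -0.80 for Fcgr2b (-0.96 to -0.63) and -0.61 for Fcgrt (-0.88 to -0.33). Again 3 of 6 were at least 1.5-fold lower, Fcgr1, Fcgr2b and Fcgrt, against 38.3% of genes. By TMM none was lower, against 11.9% of genes, and 2, Fcer1g at 0.79 and Fcgr4 at 0.83, were at least 1.5-fold higher, against 17.3%. From 7 to 28 dpi Fcgr4 was lower by a log2 of -0.37 (-0.57 to -0.17), and the other 5 lay between -0.08 and 0.18.

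In vehicle MDMs at 7 dpi the log2 ratios to sham were 0.16 for Fcer1g (0.12 to 0.21), -0.94 for Fcgr1 (-1.10 to -0.78) and -0.96 for Fcgr3 (-1.05 to -0.87). Fcgr4 was at 0.91 (0.57 to 1.26), Fcgr2b at -0.88 (-1.08 to -0.68) and Fcgrt at -0.64 (-1.03 to -0.23). Here 4 of 6 were at least 1.5-fold lower, against 28.8% of genes, and 1, Fcgr4, was higher, by 1.87-fold, against 9.98%. By TMM 2 were still at least 1.5-fold lower, Fcgr1 at -0.64 and Fcgr3 at -0.66, against 14.5% of genes, and Fcgr4 was at 1.21. At 28 dpi 1 of 6 was at least 1.5-fold lower than in sham, against 22.1% of genes: Fcgr2b, at -0.95 (-1.16 to -0.74) by CPM and -0.67 by TMM. Fcer1g was then at 0.18 (0.14 to 0.23), Fcgr1 at -0.47 (-0.63 to -0.31), Fcgr3 at -0.56 (-0.65 to -0.47), Fcgr4 at -0.35 (-0.70 to 0.02) and Fcgrt at -0.43 (-0.83 to -0.02). The count of lower genes was 4 with each cell weighted alike and 4 with thinned cells, as Fcgr1, Fcgr3 and Fcgrt passed the line too, and 2 without doublets. Shares of all genes were not counted under these settings, so the 22.1% is not their background. Between the injured libraries 1 of 6 differed by the same fold, against 7.4% of genes lower and 8.86% higher. This was Fcgr4, 2.39-fold lower at 28 than at 7 dpi, a log2 of -1.26 (-1.39 to -1.12) by CPM and -1.27 by TMM. Fcgr1 and Fcgr3 were higher at 28 than at 7 dpi by log2 values of 0.47 (0.39 to 0.55) and 0.40 (0.36 to 0.44), and Fcer1g, Fcgr2b and Fcgrt were at 0.02, -0.07 and 0.21. When every cell was thinned to the same depth, the ratio of Fcgr4 to sham at 7 dpi was 0.57 in both microglia and MDMs, just under the 1.5-fold line, and the ratio of 28 to 7 dpi in MDMs was -0.99.

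**Figure D3:**
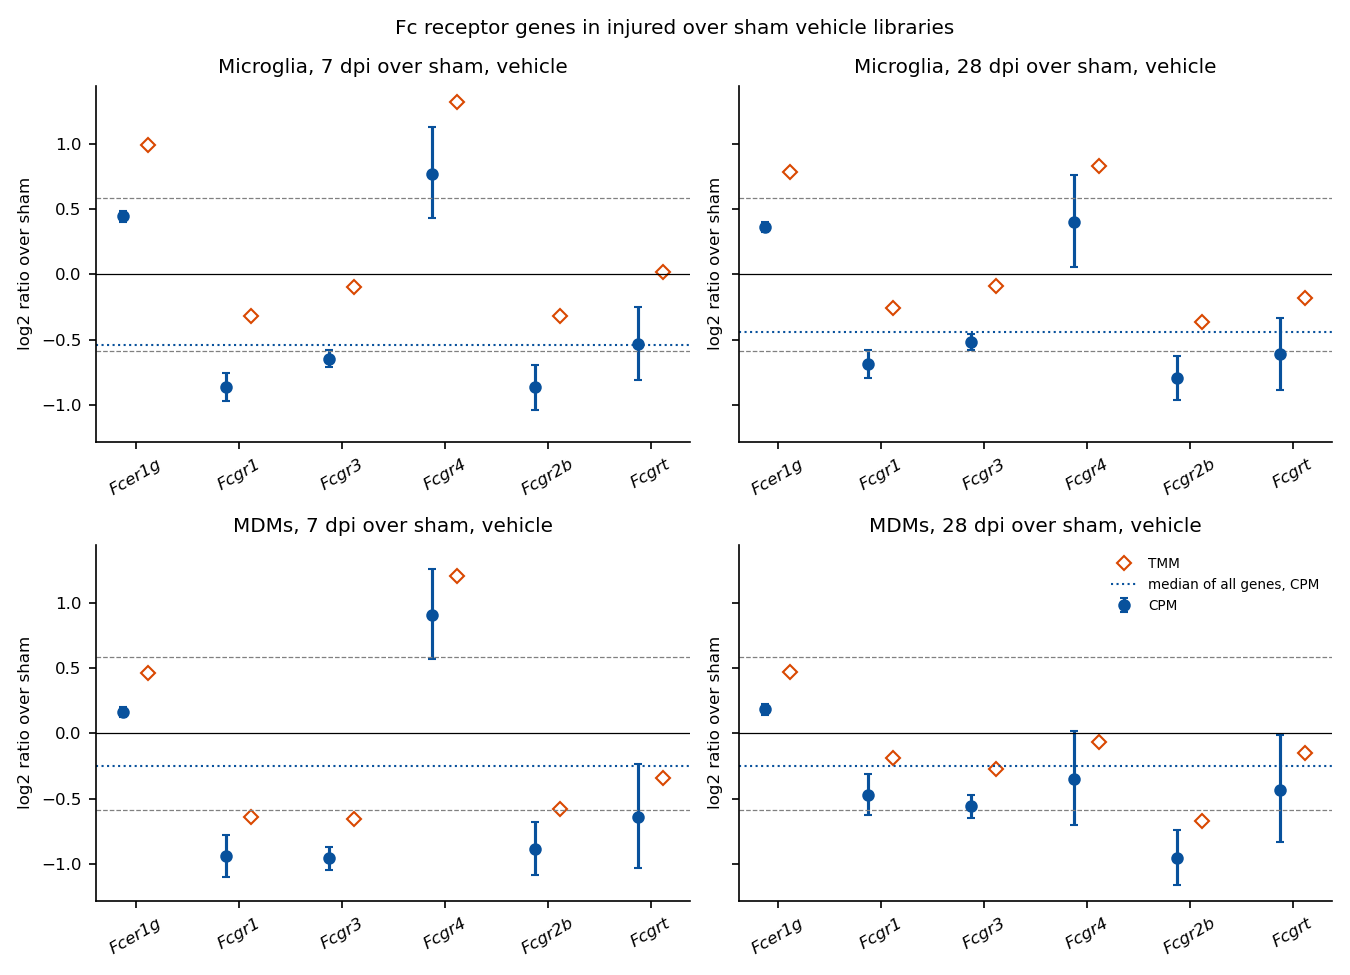
Log2 ratio of each Fc receptor gene in injured over sham vehicle libraries, for microglia and MDMs at 7 and 28 dpi. Circles are CPM with 95% intervals, diamonds the same ratio by TMM scaling, the dotted line the median of all genes by CPM and the dashed lines a 1.5-fold difference. Fcgr4 lay above 0 by both scalings at 7 dpi in both clusters, and Fcgrt in microglia turned from -0.53 by CPM to 0.02 by TMM.

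Vehicle monocytes at 7 dpi had 2 of 6 genes at least 1.5-fold lower than in sham, against 19.1% of genes. These were Fcgr2b, at -1.26 (-1.58 to -0.94) by CPM and -1.02 by TMM, and Fcgrt, at -1.18 (-1.55 to -0.80) and -0.93. Fcgr3 was at -0.50 (-0.71 to -0.29), Fcer1g at 0.03 and Fcgr4 at -0.20 (-0.62 to 0.24), or 0.04 by TMM. Fcgr1 was at 0.52 (0.10 to 0.97) by CPM and 0.77 by TMM, but at -0.12 with thinned cells. At 28 dpi 1 of the 5 that held enough UMIs was lower than in sham, Fcgr2b at -0.69 (-1.07 to -0.30), against 19.5% of genes, and it was at -0.46 by TMM. Fcer1g was at -0.17, or 0.06 by TMM, Fcgr1 at 0.47 (-0.02 to 0.98), Fcgr3 at -0.07 and Fcgrt at -0.58 (-1.03 to -0.14). Fcgr4, with 89 UMIs in both libraries, was at -1.32 (-1.99 to -0.67). From 7 to 28 dpi 1 was at least 1.5-fold higher by CPM, Fcgrt at 0.60 (0.21 to 0.97), against 6.21% of genes. By TMM it was at 0.58, just under the line, and no member was higher, against 5.69% of genes. By CPM 1 was lower, Fcgr4 at -1.12 (-1.70 to -0.58), against 8.89%. Fcgr2b was at 0.58 (0.24 to 0.91), Fcgr3 at 0.43, Fcgr1 at -0.05 and Fcer1g at -0.20. In neutrophils Fcer1g was at 0.48 (0.35 to 0.62) at 7 dpi and Fcgr3 at -0.37 (-0.71 to -0.03), while Fcgr4, with 82 UMIs, was at 1.28 (0.48 to 2.17). In the same comparison C1qa was at 4.85 (4.17 to 5.64), Trem2 at 4.62 (3.63 to 5.84) and Csf1r at 1.70 (1.13 to 2.31), and the part of these macrophage genes in the neutrophil ratios was not tested. Per 1000 UMIs of the myeloid list, neutrophil Fcer1g was 230 (210 to 251) in sham and 165 (156 to 174) at 7 dpi, the opposite order to that per all UMIs.

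Microglia and MDMs of the same library were compared next, as a description, since the clusters were formed from these cells. MDMs had less Fcgr1 than microglia in all 5 libraries with enough cells, by log2 values of -0.94, -1.02 and -0.73 in vehicle sham, 7 dpi and 28 dpi and of -1.18 and -1.04 in PLX5622 7 and 28 dpi. Fcgr3 was lower as well, by -0.71, -1.02, -0.75, -1.13 and -1.22 in that order, and so was Fcgrt in the vehicle libraries, by -0.84, -0.95 and -0.66. These 3 genes were the members at least 1.5-fold lower in vehicle MDMs, 3 of 6 in each library, against 30.4% of genes in sham, 13.9% at 7 dpi and 13.1% at 28 dpi. Under PLX5622 they were 2 of the 5 with enough UMIs, Fcgr1 and Fcgr3, against 16.7% of genes at 7 dpi and the same 16.7% at 28 dpi. By TMM the lower genes were 1 in sham, Fcgr1 at -0.60, against 14.8% of genes, and none at 28 dpi, against 7.49%. Fcgr3 was at -0.57 by TMM at 28 dpi. Fcgr2b was lower by -0.36, -0.37 and -0.51 in the vehicle libraries, though with thinned cells the value in sham was 0.30. Fcer1g was higher by 0.27 in vehicle sham, or 0.61 by TMM, and lay between -0.08 and 0.09 in the other 4 libraries. Fcgr4 was higher in MDMs at vehicle 7 dpi, 0.55 (0.40 to 0.70), and lower at 28 dpi, -0.34 (-0.52 to -0.15). Its value was 0.42 (-0.06 to 0.89) in vehicle sham, or 0.76 by TMM and -0.03 with each cell weighted alike. Under PLX5622 Fcgr4 was at 0.32 (-0.26 to 0.94) at 7 dpi, then 0.29 (-0.37 to 1.01) at 28 dpi, with intervals that included 0, and the 28 dpi value was -0.89 with thinned cells.

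On all cells, PLX5622 and vehicle microglia differed by less than 1.5-fold by CPM for every member with enough UMIs. None of 5 in sham, of 6 at 7 dpi and of 6 at 28 dpi passed that line by CPM in either direction, against 26.8%, 22.1% and 23.1% of genes. In sham Fcgr3 was at -0.41 (-0.66 to -0.17), Fcer1g at -0.05 (-0.20 to 0.09) and Fcgr1 at 0.15 (-0.20 to 0.48), while Fcgr2b was at -0.23 (-0.87 to 0.35) and Fcgrt at 0.19 (-0.80 to 1.03). At 7 dpi Fcer1g was at -0.23 (-0.31 to -0.15), Fcgr3 at 0.19 (0.03 to 0.34), or -0.06 with thinned cells, and Fcgrt at 0.40 (-0.24 to 0.97), an interval that still holds a 1.5-fold difference, and Fcgr1, Fcgr4 and Fcgr2b were at 0.17, 0.18 and 0.26. At 28 dpi all 6 lay between -0.22 and 0.21. The PLX5622 values rest on 29, 61 and 126 microglia, whose median of 5000, 6448 and 2896.5 UMIs per cell was above that of vehicle microglia. With cells thinned or weighted alike, Fcgrt was at least 1.5-fold higher under PLX5622 in sham and at 7 dpi. In addition 1 member was lower at 7 dpi with thinned cells, Fcgr2b at -0.77, and 1 at 28 dpi with each cell weighted alike, Fcgrt at -0.63. Shares of all genes were not counted with cells thinned or weighted alike.

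In MDMs 1 of 6 was at least 1.5-fold lower in PLX5622 than in vehicle mice at 7 dpi, against 7.47% of genes: Fcgrt, at -0.68 (-1.27 to -0.14), which with each cell weighted alike was at -0.44 and no longer past the line. Fcer1g was at -0.29 (-0.33 to -0.25), and Fcgr2b at 0.48 (0.27 to 0.68) but at -0.05 with thinned cells. Fcgr1, Fcgr3 and Fcgr4 were at 0.01, 0.08 and -0.05. At 28 dpi 1 of 6 was at least 1.5-fold higher, against 8.66% of genes: Fcgr4, at 0.74 (0.40 to 1.07) by CPM and 0.67 by TMM. That ratio does not hold across cells, since it was 0.30 with each cell weighted alike and reversed to -0.49 with thinned cells. Fcgr3 was at -0.47 (-0.60 to -0.35) and Fcgr1 at -0.34 (-0.56 to -0.13), and Fcer1g, Fcgr2b and Fcgrt were at -0.17, 0.24 and -0.55.

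In monocytes at 7 dpi 1 of 6 was at least 1.5-fold higher under PLX5622, against 10.7% of genes: Fcgr1, with 274 CPM (214 to 345) against 167 (150 to 185), a log2 of 0.71 (0.33 to 1.08). The others were at -0.34 for Fcer1g, -0.34 for Fcgr3, -0.19 for Fcgr4, 0.02 for Fcgr2b and -0.45 for Fcgrt, and with each cell weighted alike Fcgrt was lower, at -1.14. At 28 dpi all 5 with enough UMIs were at least 1.5-fold lower under PLX5622, against 23.2% of genes. Fcer1g was 1463 CPM (1332 to 1604) against 2610 (2486 to 2738), Fcgr3 106 (72.9 to 149) against 505 (451 to 563), and Fcgr2b 41.7 (22.2 to 71.3) against 168 (138 to 203). Fcgr1 was 51.3 (29.3 to 83.4) against 162 (132 to 196) and Fcgrt 86.6 (57.1 to 126) against 133 (106 to 165), the latter with overlapping intervals. The log2 ratios were -0.83 (-0.99 to -0.68) for Fcer1g, -2.25 (-2.82 to -1.73) for Fcgr3, -2.01 (-2.96 to -1.17) for Fcgr2b, -1.65 (-2.51 to -0.89) for Fcgr1 and -0.62 (-1.30 to 0.02) for Fcgrt. By TMM 4 of them stayed below the line, against 19.4% of genes, and Fcgrt, at -0.53, did not. Fcgr4 had 51.3 CPM (29.3 to 83.4) against 50.2 (34.3 to 70.8).

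The cells of that cluster also differed between these libraries in the genes of other myeloid types, and the part of this in the ratios was not tested. The dendritic cell genes Siglech (372 CPM in PLX5622, 76.8 in vehicle), Ccr9 (151 and 4.7), Flt3 (122 and 26.7), Cd209a (398 and 138) and H2-Aa (7284 and 3767) were higher in the PLX5622 library of 63 cells. Of these, Siglech was also among the leading genes of the microglia cluster. The macrophage genes Csf1r (273 and 745) and Lyz2 (635 and 2211) were lower, and Retnla was at 0 UMIs against 604 CPM. Genes of monocytes were split. Ccr2 (655 and 386), Ly6c2 (674 and 347) and Plac8 (812 and 598) were higher under PLX5622, while Chil3 (77.0 and 160) and F13a1 (122 and 414) were lower. The 12 genes of the myeloid list (Tyrobp, C1qa, C1qb, C1qc, Ctss, Lyz2, Cd68, Csf1r, Aif1, Laptm5, Cd52 and Cyba) summed to 12216 CPM in PLX5622 and 25939 in vehicle monocytes at 28 dpi.

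Fcgrt, the heavy chain of FcRn, was spread differently from the other 5. Endothelial cells had 408 CPM (340 to 485) in vehicle sham, 259 (233 to 287) at 7 dpi, then 377 (338 to 420) at 28 dpi, and 518 (462 to 580), 345 (298 to 397) and 353 (280 to 438) under PLX5622. In vehicle mice the 7 dpi library was the low one and its interval lay apart from the others. Under PLX5622 both injured libraries lay below sham. The log2 ratio of 7 dpi to sham was -0.66 (-0.95 to -0.35) in vehicle and -0.59 (-0.85 to -0.32) in PLX5622 mice, and it was -0.44 by TMM in vehicle mice. From 7 to 28 dpi the vehicle ratio was 0.54 (0.33 to 0.76). PLX5622 over vehicle gave 0.35 (0.04 to 0.66) in sham, 0.42 (0.16 to 0.67) at 7 dpi, then -0.10 (-0.46 to 0.25) at 28 dpi.

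Other vessel-associated and barrier clusters came next in vehicle sham, where leptomeningeal cells had 379 CPM (316 to 450) and cluster 12 329 (259 to 411), intervals that overlapped that of endothelial cells. At vehicle 7 dpi cluster 12 had 288 (149 to 503, from 12 UMIs in 20 cells), an interval that took in that of endothelial cells, 259 (233 to 287). At vehicle 28 dpi these clusters had 198 (140 to 272) and 170 (97.2 to 276), below endothelial cells. Vehicle monocytes had 200 (161 to 245), 88.1 (76.1 to 101) and 133 (106 to 165), astrocytes 65.4, 92.5 and 62.8, microglia 74.4 (63.2 to 87.1), 51.5 (46.3 to 57.3) and 48.7 (43.9 to 53.8), and MDMs 41.6 (31.7 to 53.7), 26.6 and 30.8. Monocytes were thus the highest of the blood-derived clusters for FcRn, and neutrophils, with 3.59, 12.7 and 11 CPM, among the lowest. After thinning, 32.9%, 30.1% and 29.7% of vehicle endothelial cells had an Fcgrt UMI, and no neutrophil did. Unthinned, the endothelial shares were 69.5%, 58.7% and 48.8%, at medians of 3023.5, 2409 and 1342 UMIs per cell. Of all Fcgrt UMIs in a library, endothelial cells gave 17.9%, 22.8% and 24.2% under vehicle and 58.9%, 54.2% and 41.8% under PLX5622, a share set also by how many cells of each type were captured. B2m, the partner of Fcgrt, was at 1181, 1189 and 1550 CPM in vehicle endothelial cells.

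**Figure D4:**
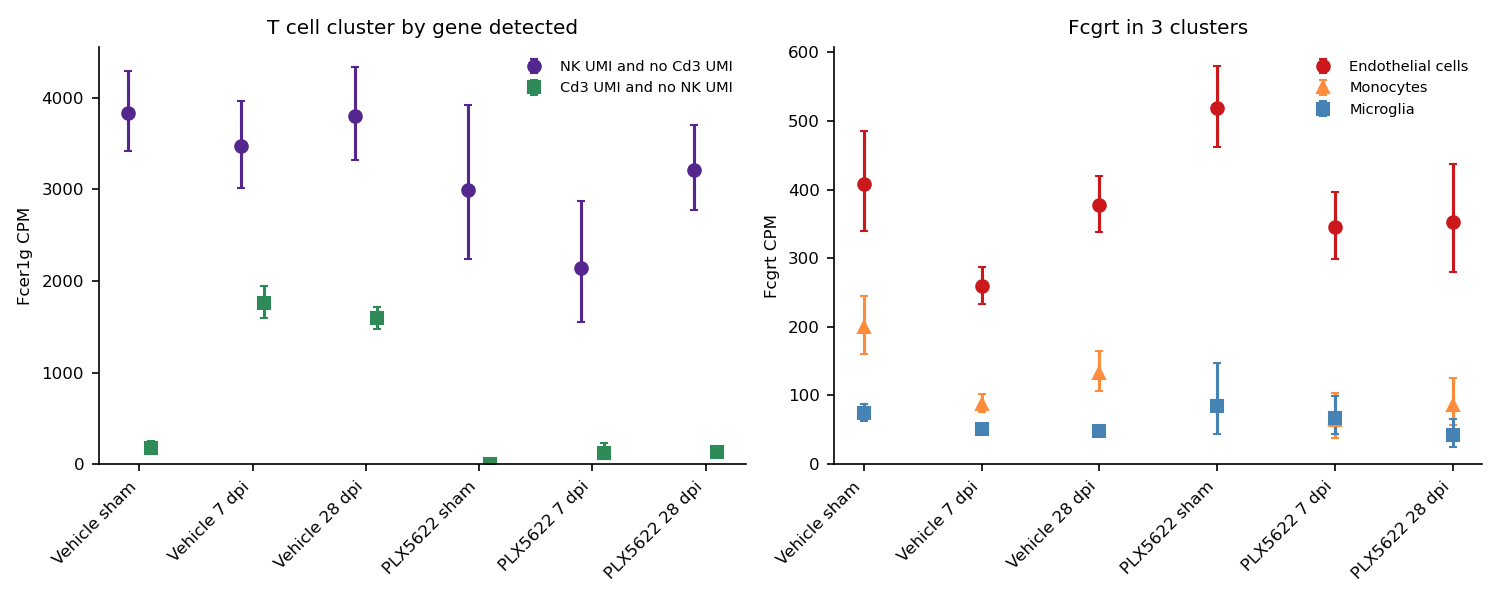
Left, CPM of Fcer1g in cells of the T cell cluster with an NK UMI and no Cd3 UMI (circles) and with a Cd3 UMI and no NK UMI (squares), by library. Right, CPM of Fcgrt in endothelial cells, monocytes and microglia. Bars are 95% Poisson intervals, monocytes of PLX5622 sham (14 cells) are not drawn, and the left panel includes groups of under 20 cells in the PLX5622 sham and 7 dpi libraries. Cells with NK genes held 2141 to 3837 CPM of Fcer1g, and endothelial cells held the highest Fcgrt level of the 3 clusters in every library.

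The T cell cluster carried Fcer1g at 1411, 2116 and 1801 CPM under vehicle, and PLX5622 libraries had 511, 636 and 664. NK cells use Fcer1g, and T cells mostly do not, so the cluster was divided by Klre1, Klrb1c, Ncr1 and Klra8 against the 3 Cd3 genes, a division chosen after the values were seen. Cells with an NK UMI and no Cd3 UMI had 3837, 3470 and 3807 CPM in vehicle sham, 7 dpi and 28 dpi (25, 32 and 38 cells), and 3215 in PLX5622 28 dpi (26 cells). Cells with a Cd3 UMI and no NK UMI had 176 CPM in vehicle sham, 1765 and 1593 at 7 and 28 dpi, and 133 in PLX5622 28 dpi. NK-type cells thus held at least 3215 CPM of Fcer1g in each of these libraries. The part of myeloid RNA in their level was not tested. The Cd3-type cells of the 2 injured vehicle libraries were far above those of the other libraries, and in those cells the summed myeloid list was 21169 and 20735 CPM against 4912 to 6384 in the other 4. Fcgr3, the known Fc gamma receptor of NK cells, was at 99, 373 and 288 CPM in the NK-type cells and 18.8, 267 and 290 in the Cd3-type cells of vehicle libraries.

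Fcer1g UMIs were also found in clusters that should lack it, above all in the injured vehicle libraries. Astrocytes had 93.6 CPM (73.4 to 118) in vehicle sham, 2112 (1907 to 2332) at 7 dpi, then 1855 (1726 to 1991) at 28 dpi, against 10.2 (3.76 to 22.3), 171 (102 to 271) and 72.6 (36.2 to 130) under PLX5622. Endothelial cells had 142, 833 and 986 under vehicle and 10.2, 120 and 120 under PLX5622, and ependymal cells 12.7, 734 and 664, and 18.9, 237 and 104. The values moved with the whole myeloid list, all 12 genes of which were detected, and which summed in astrocytes to 1622, 21415 and 20995 CPM under vehicle and 97.3, 2171 and 963 under PLX5622. Per 1000 UMIs of that list at vehicle 7 dpi there were 78.9 Fcer1g UMIs in microglia and 105 in MDMs, and 98.6 in astrocytes, 88.6 in endothelial, 104 in ependymal, 94.5 in B and 95.6 in T cells. At 28 dpi these numbers were 76.2, 94, 88.3, 84.9, 85, 74.8 and 89.2. In these 2 libraries the ratio in the 5 non-myeloid clusters thus lay in or near the range of microglia and MDMs. In vehicle sham it did not in all of them: microglia had 61 and MDMs 82.3, but T cells 224 (200 to 250) and B cells 26.8 (14.2 to 46.3). Among cells with fewer than 3 UMIs of the list the level of Fcer1g was 9.5, 97.4 and 128.6 CPM in vehicle astrocytes. Whether free RNA, doublets or cell contact put these UMIs there was not tested. Endothelial Fcgrt in cells with fewer than 3 list UMIs was 443, 322 and 543 CPM under vehicle and 676, 354 and 326 under PLX5622, as high as over all endothelial cells or close to it.

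**Figure D5:**
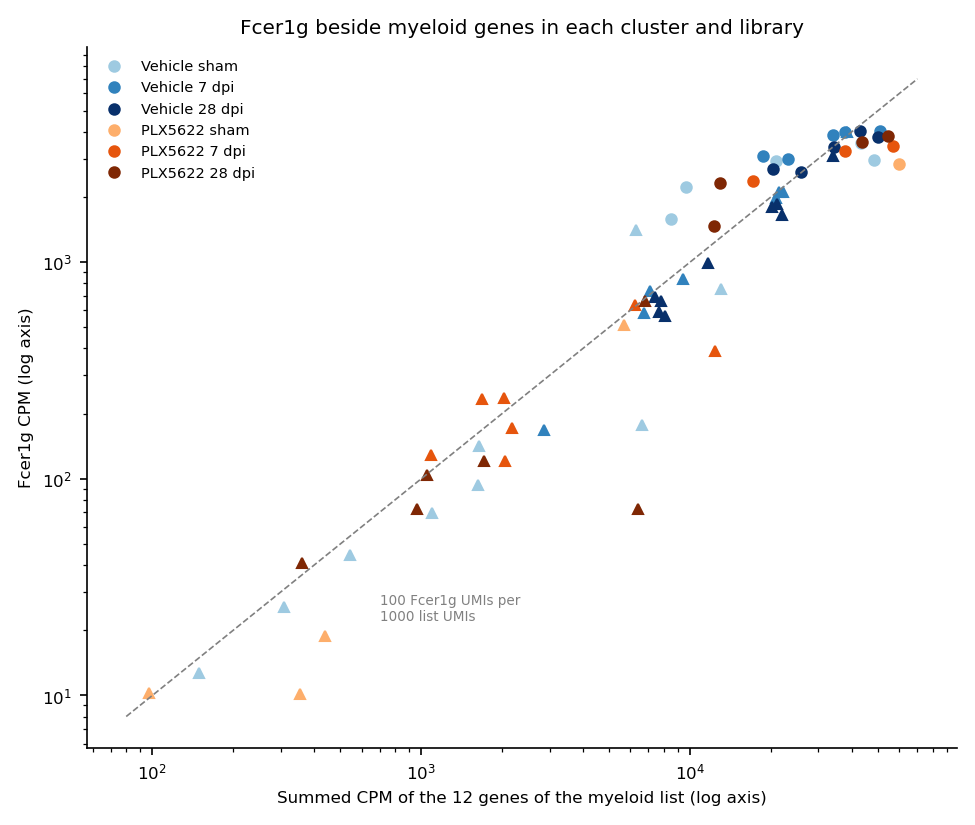
CPM of Fcer1g against the summed CPM of the 12 genes of the myeloid list (both log axes), 1 point for each cluster and library with at least 20 cells, coloured by library. Circles are microglia, MDMs, monocytes, neutrophils and cycling cells, triangles the other clusters, and the dashed line marks 100 Fcer1g UMIs per 1000 list UMIs. Astrocytes at vehicle 7 dpi had 2112 CPM of Fcer1g beside 21415 CPM of the list, and astrocytes of PLX5622 sham 10.2 CPM beside 97.3.

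Signalling genes around the receptors were taken from lists. Of 16 genes of ITAM signalling in vehicle microglia at 7 dpi, 9 were at least 1.5-fold lower and 1 higher by CPM, with a median log2 of -0.62 against -0.54 over all genes, and by TMM 1 was lower and 3 higher with a median of -0.07. Over all genes 47.3% were lower and 8.56% higher by CPM, and 15.5% and 20.8% by TMM. The Src-family kinase Fgr was highest, at 1.12 (0.48 to 1.82) by CPM and 1.67 by TMM. Syk was 73.0 CPM (61.9 to 85.5) in sham, 46.4 (41.4 to 51.8) at 7 dpi, then 43.5 (39.0 to 48.4) at 28 dpi. Its log2 ratio at 7 dpi was -0.65 by CPM and -0.11 by TMM, so it lay with the median of all genes. Of the 9 inhibitory genes 6 were lower and 1 higher, with a median of -0.69, or 2 and 1 by TMM with a median of -0.14. Lilrb4a, a receptor with ITIM motifs that is listed as Lilrb4, was the higher one, at 9.54 CPM in sham and 96.7 at 7 dpi, a log2 of 3.34 (2.70 to 4.06), and the adaptor Pag1 was lowest, at -1.56. Inpp5d, the phosphatase that acts below Fcgr2b, was 267 (245 to 290), 166 (156 to 176) and 180 (171 to 190) CPM, with a ratio at 7 dpi of -0.69 by CPM and -0.14 by TMM.

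Of the 3 genes of the adaptor list, 2 were at least 1.5-fold higher in microglia at 7 dpi, against 8.56% of genes by CPM. These were the adaptors Hcst at 1.77 and Tyrobp at 1.34, and Trem2, a receptor that signals through Tyrobp, was at 0.27. Tyrobp was 2556 CPM (2488 to 2626) in sham, 6454 (6394 to 6515) at 7 dpi, then 5786 (5733 to 5839) at 28 dpi, so that it exceeded Fcer1g in the injured libraries and not in sham. At 28 dpi the counts in microglia were 9 lower and 1 higher for ITAM signalling, 3 lower and 1 higher for the inhibitory list, and 2 higher for the adaptor list, against 38.3% of genes lower and 7.43% higher. The medians were -0.68, -0.54 and 1.18 against -0.44 over all genes. By TMM 1 was lower and 1 higher for ITAM signalling, 2 lower and 1 higher for the inhibitory list and all 3 genes of the adaptor list higher, against 11.9% of genes lower and 17.3% higher.

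In vehicle MDMs at 7 dpi, by CPM, ITAM signalling had 3 lower of 16 with a median of -0.17. The inhibitory list had 3 lower of 9 with a median of -0.18, and the adaptor list 1 higher of 3, Hcst at 1.13. Over all genes the median was -0.25, with 28.8% lower and 9.98% higher. Counts of these lists by TMM are not given for MDMs. Syk was at 0.48 (0.11 to 0.89), in the opposite direction from microglia. Of the 10 partner receptors of Fcer1g 3 held enough UMIs, each mainly through the larger 7 dpi library, so that their number says nothing of the list. They were the C-type lectins Clec4d, at 1.79 (1.27 to 2.36, with 1449 UMIs against 30), Clec4n, at 0.97 (0.44 to 1.56, with 796 against 29), and Clec4e, at 3.26 (0.75 to 8.57, with 134 against 1). At 28 dpi Clec4n was at -1.22 against sham. B2m, the partner of FcRn, was 3912 CPM (3810 to 4016) in sham MDMs, 1843 (1824 to 1862) at 7 dpi, then 2635 (2608 to 2662) at 28 dpi, and a log2 of -1.09 at 7 dpi, while in microglia it was at -0.02.

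Receptors for other antibody classes marked other cells. Fcer2a, the low-affinity IgE receptor of B cells, was at 437, 65.0 and 56.1 CPM in vehicle B cells, and Fcmr, the IgM receptor listed as Faim3, at 778, 174 and 192. Of the vehicle libraries both were highest in sham, where the cluster held 23 cells. Under PLX5622 they were at 149 and 251 CPM for Fcer2a and 397 and 526 for Faim3 at 7 and 28 dpi, above the injured vehicle libraries. The myeloid list summed in B cells to 6620, 20815 and 21990 CPM under vehicle and to 12357 and 6412 at PLX5622 7 and 28 dpi, and its part in these levels was not tested. Fcrls, an Fc receptor-like gene, did not mark 1 cluster alone. It was at 1211 (1164 to 1259), 1719 (1688 to 1750) and 1109 (1086 to 1132) CPM in vehicle microglia, with a log2 of 0.51 at 7 dpi. In vehicle MDMs it was at 1046 (994 to 1101), 783 (770 to 795) and 978 (962 to 995). Fcamr and 9 of the 10 listed immunoglobulin chain genes were not analysed here. The J chain, listed as Igj, had 915 UMIs in B cells at vehicle 28 dpi, and 914 of these came from 2 of the 329 cells.

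Across the 66 pairs of cluster and library, the genes most like each member were found by Pearson correlation of log2(CPM + 10) among 7207 genes. The points share libraries and clusters, and the values are a description. Fcer1g was closest to Tyrobp (0.98), Plek (0.95), Fyb and Itgb2 (both 0.93). Fcgr1 was closest to Csf1r and Tbxas1 (both 0.95), Fcgr3 to Itgam (0.94) and Csf1r (0.93), and Fcgr4 to Tlr13 (0.93), C5ar1 and Lst1. Fcgr2b was closest to Lat2 (0.90) and Tlr7 (0.89), and Fcgrt to Tns1 (0.86), Rras and Sult1a1 (both 0.84). The 5 other members were thus nearest to genes of myeloid cells, and the correlation of Fcgrt with each of them lay between -0.14 and 0.05.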

How the data were processed

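Per the labels, cords were dissociated with myelin and dead cells removed. The authors counted UMIs with Cell Ranger on a mouse reference and clustered cells with Seurat. GRCm38 and mm10 stand in the submitters' processing notes, and the paper gives them for the bulk reads. The values used are the deposited raw UMI counts per gene and cell and the authors' cluster numbers. A cap of 3000 genes per cell was described, but 716 of the 21016 deposited cells exceed it, and the described range of 200 to 3000 genes would leave 20299. All cells of the table were used. The matrices hold 21270 barcodes, and the 126096 values of the 6 genes are the same in both.

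Counts were summed per cluster and library with Python 3.11.15, numpy 2.4.6, pandas 2.3.3 and scipy 1.17.1. CPM has exact Poisson intervals, log2 ratios have exact conditional binomial intervals, and shares have Clopper-Pearson intervals, all at 95%. A ratio was counted where both libraries together held at least 100 UMIs and it passed 1.5-fold. A count of 0 was read against 3 UMIs. TMM factors came from edgeR 4.0.16 and size factors from DESeq2 1.42.0 in R 4.3.3, with no test run. Doublets were ranked by Scrublet in scanpy 1.11.5 at 0.8% per 1000 cells and kept in the main values. Code was tested on simulated data. Plots used matplotlib 3.10.9.

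All 6 genes are given in the comparisons of microglia, MDMs and monocytes, and genes under the minimum of UMIs in others are given by level alone or left out. From each list, the genes with the highest and the lowest ratio were to be named, with Tyrobp, Syk, Inpp5d and B2m, and the 5 genes most alike were found for each member. A gene that this rule names is not reported here. The rule for the members uses symbols and no measured value, but the members and lists were chosen with earlier results of these data known. The bulk samples of the series were not analysed here.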

Additional observations from a re-analysis of the deposited data

Results flagged for a closer look

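Under PLX5622, Fcer1g from 7 to 28 dpi went in opposite directions in different clusters of the same 2 libraries. The log2 ratio was 0.15 in microglia and 0.14 in MDMs, both higher at 28 dpi, and -0.69 in monocytes, which were lower. The median of all genes counted was itself at -0.22 by CPM in monocytes, where 27.5% were at least 1.5-fold lower. It was at 0.04 in microglia and -0.01 in MDMs. The monocyte ratio rests on 29 cells at 7 dpi and 63 at 28 dpi. The difference between the clusters was not tested, since each condition had 1 library. In the monocyte cluster the levels of dendritic cell and macrophage genes differed between these libraries too, and their part in the ratio was not tested.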

How the results depend on the processing

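With 1 library per condition, results are values and the alternatives show only how they move with the processing. No paired analysis was possible because each condition has 1 library, and for the same reason no replicate could be left out. Of the counts of members past 1.5-fold and the Fcgr2b shares, 369 values under the alternatives stayed and 73 moved. Of the single ratios and levels 1010 stayed, 236 moved and 1 was labelled reversed. This was Fcgr4 in MDMs, PLX5622 over vehicle at 28 dpi, at -0.49 with cells thinned to 1000 UMIs. Ratios under 1.5-fold that changed sign, given above, were not labelled so. They include Fcgrt in microglia by TMM and, with thinned cells, Fcgr1 in monocytes and Fcgr2b and Fcgr4 in MDMs over microglia. Thinning left out 2816 cells, a minimum of 500 genes left out 2281 and doublet removal 1256.

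By TMM, the members higher were 2 in microglia at 7 dpi and 2 at 28 dpi over sham, 1 in monocytes at each of these times, 0 from 7 to 28 dpi in monocytes, and 2 and 1 in MDMs over microglia of vehicle sham and 7 dpi. The shares of all genes higher were 20.8% and 17.3% in microglia and 18.1% and 13.8% in monocytes. They were 5.69% from 7 to 28 dpi in monocytes, and 21.3% and 15.2% in MDMs over microglia. Those lower by TMM were 0 in microglia at both times and in monocytes at 28 dpi, 2 in MDMs at 7 dpi, 1 in MDMs of PLX5622 over vehicle at 28 dpi, and 1 and 0 in MDMs over microglia of vehicle sham and 28 dpi. The shares of all genes lower were 15.5% and 11.9% in microglia, 7.97% in monocytes and 14.5% in MDMs at 7 dpi. They were 11.1% in MDMs of PLX5622, and 14.8% and 7.49% in MDMs over microglia. In this section shares of all genes are given for TMM alone. By DESeq2 size factors, those higher were 2 and 2 in microglia, 1 and 1 in monocytes, 2 from 7 to 28 dpi in monocytes and 1 and 1 in MDMs over microglia of sham and 7 dpi, and those lower 0 and 0 in microglia, 0 in monocytes at 28 dpi and 1 and 1 in MDMs over microglia of sham and 28 dpi. Without ribosomal genes, 2 were higher in microglia at 7 dpi and 1 in monocytes at each time, and 1 was lower in microglia and 0 in monocytes at 28 dpi.

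With each cell weighted alike, those higher were 0 in MDMs of PLX5622 over vehicle at 28 dpi and 1 in microglia of PLX5622 over vehicle in sham and at 7 dpi. Those lower were 1 in MDMs over microglia of sham, 4 in MDMs at 28 dpi over sham, 0 in monocytes at 28 dpi, and, for PLX5622 over vehicle, 0 in MDMs at 7 dpi, 1 in microglia at 28 dpi and 1 in monocytes at 7 dpi. The Fcgr2b share was then 12.5% in MDMs at vehicle 7 dpi and 28.0% in monocytes at PLX5622 28 dpi. With thinned cells, those higher were 0 in microglia and MDMs at 7 dpi over sham, 1 in microglia of PLX5622 over vehicle in sham and at 7 dpi and 2 in monocytes from 7 to 28 dpi, and those lower 4 in MDMs at 28 dpi over sham and 1 in microglia of PLX5622 over vehicle at 7 dpi. The Fcgr2b share with thinned cells was 14.8%, 12.4%, 11.2% and 17.4% in MDMs of vehicle sham, vehicle 7 dpi, PLX5622 7 dpi and PLX5622 28 dpi, 8.35%, 8.84% and 5.48% in microglia of vehicle sham, vehicle 28 dpi and PLX5622 7 dpi, and 11.9% in monocytes at vehicle 7 dpi.

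At 2-fold, 3 members were lower in monocytes of PLX5622 over vehicle at 28 dpi, and 0 were past it in 13 other counts: higher in microglia and MDMs at 7 dpi over sham, in MDMs of PLX5622 at 28 dpi, in monocytes from 7 to 28 dpi and in monocytes of PLX5622 at 7 dpi, and lower in microglia and MDMs at both times over sham, in monocytes at 28 dpi, in MDMs of PLX5622 at 7 dpi and in MDMs over microglia of vehicle sham and 28 dpi. With no minimum of UMIs 2 were lower in monocytes at 28 dpi over sham, and without doublets 2 were lower in MDMs at 28 dpi. The cause of these moves was not tested.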
